A study of Homo sapiens with 42 samples.

Results

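The comparison set PC9 drug-tolerant persister cells that had then received AZD5153 against persister cells without it. PC9 is an established EGFR-mutant lung adenocarcinoma line. The members were chosen by sample label and make up 6 of the 42 ATAC-seq libraries of the series, 3 in each group. The DTP group had received 500 nM osimertinib, an inhibitor of mutant EGFR, for 24 days. The combo group had received 500 nM osimertinib for 21 days and then 150 nM AZD5153 for 3 days. Neither group was free of drug. The labels do not state whether osimertinib was continued alongside AZD5153, so an effect of adding AZD5153 and an effect of stopping osimertinib cannot be told apart. For reference, PC9 control cells were kept 21 days without drug and then 3 days in DMSO, PC9 AZD5153 cells were kept 21 days without drug and then 3 days in 150 nM AZD5153, and H1975, a second EGFR-mutant lung line, had DTP and combo groups on the same schedule.

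AZD5153 is a bivalent inhibitor of BET bromodomains. BET proteins bind acetylated histones with paired bromodomains, gather at enhancers and promoters, and help the kinase complex P-TEFb release RNA polymerase II into elongation. ATAC-seq reads where a transposase can cut DNA, so it reports open chromatin at promoters and enhancers rather than BET protein binding or transcription. In bulk libraries a site that closes partly in every cell and one that closes fully in some cells cannot be told apart.

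The libraries held 4741173 to 5136258 counts each, in regions of 502 bases. Levels are given as CPM, counts per 1000000 counts of the library. Before scaling 1 count was worth 0.195 to 0.211 CPM. Of 502962 regions 126506 had enough counts to be tested. Libraries of the same group differed by about as much as counting alone would give. The variance ratio to counting noise was 0.975 to 1.014 in DTP and 0.981 to 1.018 in combo, so p-values from them measure only a spread that may be technical, although the series design calls them biological triplicates. A region was therefore described as lower or higher only when an edgeR quasi-likelihood test over the libraries and a second test both called it in the same direction, each at a Benjamini-Hochberg adjusted p under 0.05. The second test summed each group to 1 sample and used the dispersion of the HCC2935 line, 0.0103, in place of the 9.77e-05 fitted in PC9. Every region that the second test called was also called by the edgeR test in the same direction, so the second test decided the calls. It rests on 1 summed sample per group and a dispersion from another line. The SEs and edgeR p-values below carry only the spread between libraries.

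More regions closed than opened when AZD5153 followed osimertinib. The edgeR test alone called 14833 regions lower (11.7% of those tested) and 13390 higher (10.6%). Both tests together called 7027 lower, or 5.55%, and 3232 higher, or 2.55%. Regions called lower had a median of 5.17 CPM in DTP and 1.74 CPM in combo, a median log2 fold change of -1.48. Those called higher went from a median of 3.5 to 7.98 CPM, a median log2 fold change of 1.15. The closing changes were also the larger ones: 1444 regions fell by at least 2 on the log2 scale, whereas 124 rose by that much. Over all tested regions the median log2 fold change was 0. The 3 combo libraries lay wholly below the 3 DTP libraries at 22914 regions (18.1%) and wholly above them at 22065 (17.4%).

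The peak lists made separately for each library showed the same regions. A peak summit lay inside 85% to 85.9% of the lower regions in the DTP libraries, but inside 38.9% to 42.7% in the combo libraries. For the higher regions the values were 61.7% to 62.6% in DTP and 89% to 91% in combo. At 1256 lower regions (17.9%) all 3 DTP lists and no combo list held a summit, against 1.1% of regions not called. The combo lists were shorter, at 151406 to 163828 peaks against 172227 to 174356 in DTP. These lists come from the same reads as the counts and are not independent of them.

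Sites away from promoters were the ones most often lost. Of 29359 promoter regions, defined as lying within 1000 bases of a transcription start, 823 were lower (2.8%) and 661 higher (2.25%). Of the 40197 other annotated regions 3260 were lower (8.11%) and 1671 higher (4.16%). First introns had the highest share lower among classes with at least 1000 regions, 591 of 6237 or 9.48%, followed by other introns with 961 of 10421 or 9.22% and distal intergenic regions with 1027 of 13198 or 7.78%. The share lower rose steadily with distance from a start, from 1.78% of regions at a start to 9.32% of regions 30 to 100 kb away. The share higher was 1.94% at a start and 4.01% at 30 to 100 kb. Promoter regions had more counts, with a median of 10.5 CPM in DTP against 6.42 to 6.74 CPM in introns and intergenic regions, so their lower share called did not go with fewer counts.

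**Figure D1:**
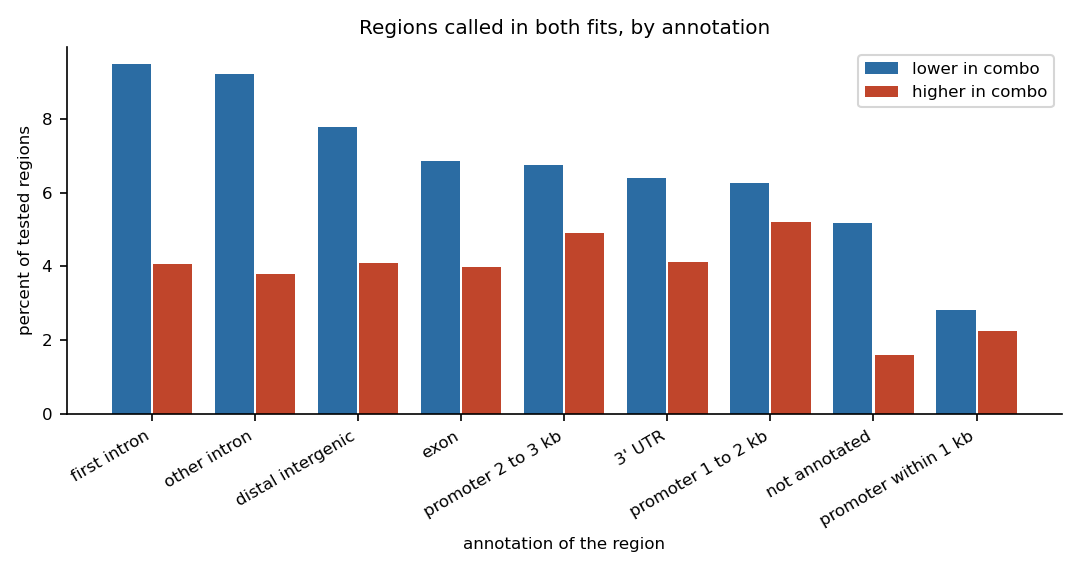
Percent of tested regions called lower (blue) or higher (red) in combo than in DTP by both tests, on the y axis, for each annotation class with at least 1000 regions, on the x axis. Introns and distal intergenic regions show the highest blue bars, 9.48% in first introns, and promoters within 1 kb the lowest blue bar among annotated classes, 2.8%.

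As a share of counts, 56.34%, 56.48% and 56.03% of the annotated counts of the 3 combo libraries fell in promoter regions. The 3 DTP libraries had 55.39%, 54.18% and 55.26%. The groups did not overlap and their means differed by 1.34 percentage points (56.28% ± 0.23 against 54.94% ± 0.67, SD, n = 3; two-sided exact permutation p = 0.1, the smallest that 3 against 3 allows). The intron share moved the other way, from 18.08% ± 0.36 in DTP to 17.17% ± 0.1 in combo (SD, n = 3; exact permutation p = 0.1). In untreated PC9 cells the promoter share was 50.64%, 51.99% and 51.65% in control and 52.18%, 52.11% and 51.8% under AZD5153 alone. Every DTP library thus stood above every control library before AZD5153 was given.

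Promoter sequences from RefSeq (GRCh38.p14, 300 bases around each start) overlapped 11706 tested promoter regions, 145 of them lower and 184 higher. The lower windows had a median GC content of 61% and 13 CpG dinucleotides, the higher windows 72.7% and 29.5, and all windows 66.7% and 27. For AP-1 factors (FOS and JUN dimers) the letters TGANTCA, with N any base, were searched on either strand. They cover the usual AP-1 sites TGACTCA and TGAGTCA, but also TGAATCA and TGATTCA, and these forms were not counted apart. The letters stood in 29 of the 145 lower windows, or 20%, in 3 of the 184 higher windows, or 1.63%, and in 5.46% of all windows. Among windows below 60% GC the shares were 32.8% of lower, 5.13% of higher and 11.7% of all windows. A GC box (GGGCGG) stood in 50.3% of lower and 78.3% of higher windows against 73% of all, and a TATA box (TATAAA) in 9.66%, 3.26% and 4.92%. A core of TEAD sites (GGAATG) was at 14.5% of lower, 10.9% of higher and 10.6% of all windows. The ETS letters (CCGGAAG) were at 3.45% of lower and 5.43% of higher windows and 17.1% of all windows. The E-box (CACGTG) was at 4.14%, 8.15% and 9.28%, and the CCAAT box at 32.4%, 28.3% and 34.2%. A match says only that the letters are present.

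A main and an internal start changed differently at GNAI2, an inhibitory G protein subunit, and at EGFR itself, both chosen after their values were seen. Whether other genes show this was not tested. Further downstream GNAI2 regions at a start had log2 fold changes of 0.04 and -0.41, and a region 628 bases from a start was at -1.34. In each gene a CpG-poor internal start was lower in combo, and the CpG-rich main start was not called in both tests. The windows below are on the plus strand, with matches to the AP-1, TEAD, TATA, GC box, CCAAT box, E-box (CACGTG) and ETS (CCGGAAG) letters on either strand in capitals.
GNAI2 main start (chr3:50235954-50236253): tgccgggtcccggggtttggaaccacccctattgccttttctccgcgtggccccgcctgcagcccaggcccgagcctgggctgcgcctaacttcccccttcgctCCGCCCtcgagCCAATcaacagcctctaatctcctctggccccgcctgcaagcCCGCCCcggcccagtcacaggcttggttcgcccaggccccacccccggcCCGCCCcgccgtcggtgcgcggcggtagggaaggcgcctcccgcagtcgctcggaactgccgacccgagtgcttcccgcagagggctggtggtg
GNAI2 internal start (chr3:50246660-50246959): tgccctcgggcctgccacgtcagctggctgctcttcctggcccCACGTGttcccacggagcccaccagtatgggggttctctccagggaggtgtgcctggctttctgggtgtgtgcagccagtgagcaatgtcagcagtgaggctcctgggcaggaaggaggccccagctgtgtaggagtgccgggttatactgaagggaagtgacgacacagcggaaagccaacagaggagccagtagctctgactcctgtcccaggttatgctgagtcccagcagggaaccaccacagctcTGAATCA
EGFR main start (chr7:55018767-55019066): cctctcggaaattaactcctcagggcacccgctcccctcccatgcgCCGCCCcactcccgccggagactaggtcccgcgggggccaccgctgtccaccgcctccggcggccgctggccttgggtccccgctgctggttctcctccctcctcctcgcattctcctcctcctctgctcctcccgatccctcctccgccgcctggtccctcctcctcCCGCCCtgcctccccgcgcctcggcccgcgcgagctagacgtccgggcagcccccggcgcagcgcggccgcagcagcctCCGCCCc
EGFR internal start (chr7:55109589-55109888): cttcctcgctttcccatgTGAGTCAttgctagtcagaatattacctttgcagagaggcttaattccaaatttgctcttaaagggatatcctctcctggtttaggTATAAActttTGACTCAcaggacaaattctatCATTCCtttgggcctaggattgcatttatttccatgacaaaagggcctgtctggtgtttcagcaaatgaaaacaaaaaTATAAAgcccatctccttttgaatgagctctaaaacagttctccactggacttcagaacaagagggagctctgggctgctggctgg

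The GNAI2 main start window held 29 CpG and the internal one 7. The AP-1 match in the internal GNAI2 window reads TGAATCA, not TGACTCA or TGAGTCA. The EGFR main start window was 75.3% GC with 33 CpG and 3 GC boxes, whereas the internal one was 42% GC with 1 CpG, 2 AP-1 matches, 2 TATA boxes and 1 TEAD match. The lower EGFR region overlaps 202 of the 300 bases of this internal window, and the second TATA box lies outside the region. The lost GNAI2 region (chr3:50246627-50247128) covers the whole internal window. It had 14.6, 16.8 and 14 CPM in the DTP libraries and 2.19, 1.33 and 1.86 CPM in the combo libraries. That was a log2 fold change of -3.04 (SE 0.255, edgeR adjusted p = 8.67e-27, adjusted p in the summed test 3.88e-14), the largest fall among promoter regions under the naming rule. The main start of GNAI2 had 77, 78.6 and 80.8 CPM in DTP and 98.5, 104 and 100 CPM in combo (log2 fold change 0.36, not called in both tests).

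At EGFR, the target of osimertinib, the main start had 50.5, 49 and 55.6 CPM in DTP and 53.2, 51.2 and 51.7 CPM in combo, a log2 fold change of 0.01 with an SE of 0.0823 (edgeR adjusted p = 0.953). The libraries of the groups overlapped. The internal start 90.6 kb downstream (chr7:55109289-55109790) had 16, 16 and 15.8 CPM in DTP and 2.93, 2.92 and 5.06 CPM in combo, a log2 fold change of -2.13 (SE 0.214, edgeR adjusted p = 4.75e-19, adjusted p in the summed test 8.27e-09). Of 36 tested regions assigned to EGFR 5 were lower and none was higher. The other 4 lay upstream of the main start or in the first intron, with log2 fold changes between -0.75 and -1.47.

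Of 43 promoter regions of receptor tyrosine kinase genes 3 were lower and none higher. Besides EGFR these were ERBB3, its dimerisation partner, at 4.62, 5.16 and 5.51 CPM in DTP and 2.44, 1.86 and 1.07 CPM in combo (log2 fold change -1.48), and AXL, a receptor known for roles in drug tolerance, at 6.32, 6.7 and 7.01 CPM in DTP and 2.19, 3.98 and 2.4 CPM in combo (-1.22). Only 1 of 4 AXL promoter regions was lower. A neighbouring AXL region at the start had 8.99, 6.7 and 9.76 CPM in DTP and 6.34, 6.89 and 9.06 CPM in combo (-0.2, not called). Over all 133 regions assigned to these genes 10 were lower and 2 higher. CCND1, which encodes cyclin D1, showed opposite changes inside its promoter. A region 401 bases downstream of the start fell from 19.2, 17 and 17 CPM to 6.58, 7.69 and 4.26 CPM (log2 fold change -1.52). Regions at the start and 656 bases upstream rose, by 0.81 and 1.22 on the log2 scale.

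Under the naming rule the largest loss was in an exon of LINC00824, a non-coding RNA on chromosome 8 (chr8:128322643-128323144). It had 12.6, 14.7 and 12.5 CPM in the DTP libraries and 0.488, 0.265 and 0.533 CPM in the combo libraries, a log2 fold change of -4.85 (SE 0.363, edgeR adjusted p = 2.27e-33, adjusted p in the summed test 2.10e-21). The combo value rests on 5 counts in all. Summed over libraries DTP was 31 times combo, with a counting interval of 13 to 96.8. A first-intron region of LINC00964, also on chromosome 8, fell from 5.35, 6.96 and 6.51 CPM to 0.488, 0.265 and 0.266 CPM (log2 fold change -4.06). The group sets did not overlap at either site.

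A region 18022 bases upstream of ZNF543, a zinc finger gene, fell from 22.8, 24 and 19.8 CPM to 1.22, 2.12 and 1.33 CPM (log2 fold change -3.81). A region in an intron assigned to KLC1, a kinesin light chain, fell from 20.2, 19.3 and 18.5 CPM to 1.95, 1.06 and 1.07 CPM (-3.78). A site near HHIPL2 had 3 counts in the combo group, so that DTP was 15.3 times combo with a counting interval of 4.92 to 76.7. Further large losses were near ZNF561-AS1 and ITPR3, an inositol trisphosphate receptor of the endoplasmic reticulum, with log2 fold changes of -3.63 and -3.44.

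Promoter losses by size, after GNAI2, were at LINC00511, VAC14-AS1, SPRR1B, KRTAP4-6 and OR1F1. SPRR1B, an epithelial cornified-envelope gene, fell from 4.86, 5.41 and 5.51 CPM to 0.732, 0.53 and 1.33 CPM (log2 fold change -2.57). KRTAP4-6 and OR1F1, a hair keratin-associated protein and an olfactory receptor, fell by 2.47 and 2.43 on the log2 scale. These families hold close copies, and reads shared between copies may have been counted at 1 of them. LINC00511 fell by 2.78 and VAC14-AS1 by 2.58, the latter from 39 to 6 counts.

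**Figure D2:**
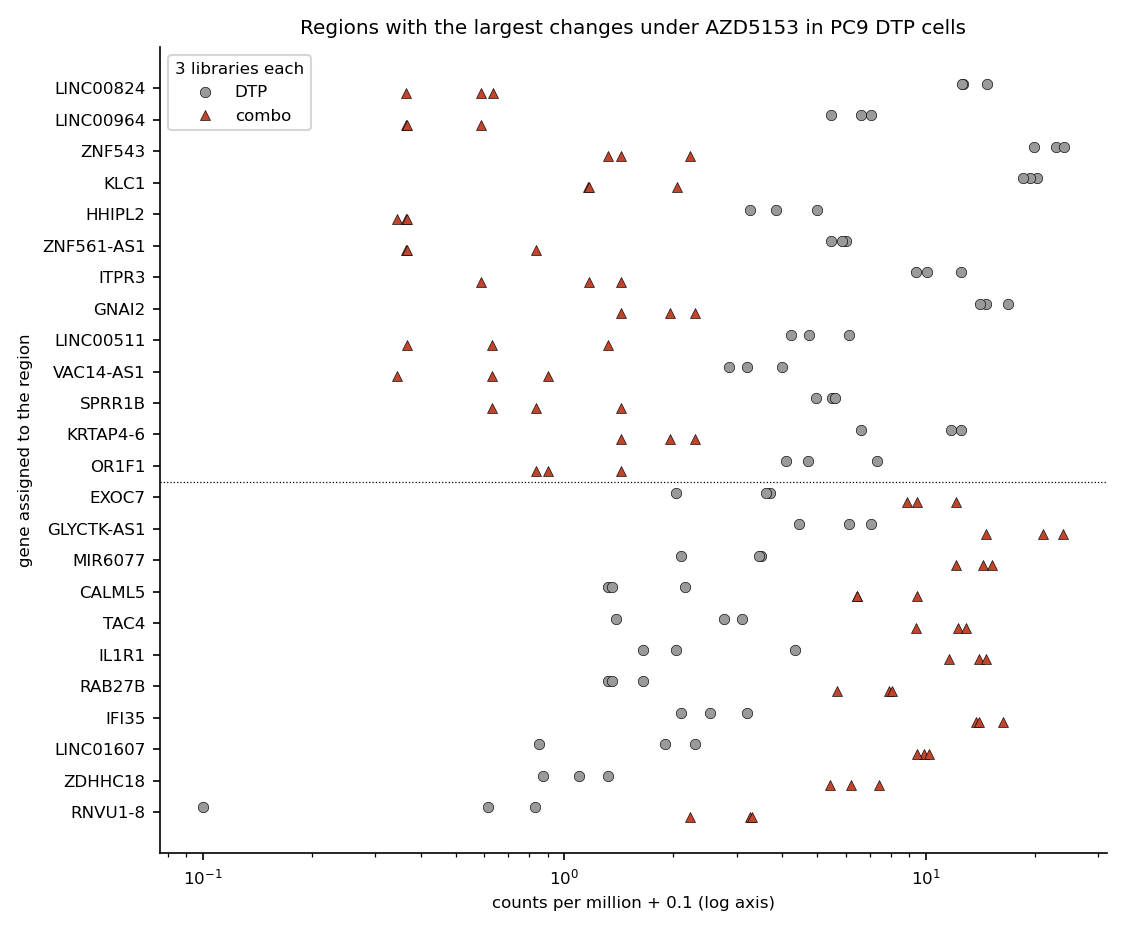
CPM plus 0.1 on a log axis, for each of the 3 DTP (circles) and 3 combo (triangles) libraries, at the regions with the largest changes, named by the assigned gene and ordered by log2 fold change. Above the dotted line the combo libraries lie below the DTP libraries, at 0.265 to 0.533 against 12.5 to 14.7 CPM at LINC00824, and under it they lie above them.

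The largest gains were smaller. ZDHHC18, a protein palmitoyltransferase gene, had 1.22, 0.773 and 1 CPM in DTP and 7.32, 6.1 and 5.33 CPM in combo at a site 2029 bases upstream (log2 fold change 2.61, SE 0.367, edgeR adjusted p = 3.93e-10, adjusted p in the summed test 7.71e-07). IFI35, an interferon-induced gene, went from 2.43, 3.09 and 2 CPM to 13.7, 16.2 and 13.9 CPM at a promoter region 890 bases upstream of its start (log2 fold change 2.52). IL1R1, the interleukin 1 receptor, rose from 1.94, 1.55 and 4.25 CPM to 13.9, 14.6 and 11.5 CPM (2.35). RAB27B, TAC4 and CALML5 rose by 2.39, 2.27 and 2.26 in distal regions, and LINC01607 by 2.59 in an intron. RNVU1-8 and MIR6077 also rose at promoter regions, by 2.68 and 2.23, but both belong to multi-copy families whose reads may be split or shared, so that these values are uncertain. GLYCTK-AS1 and EXOC7 were further promoter gains, with log2 fold changes of 1.79 and 1.73. Several of these sites were lower in DTP than in control cells: RNVU1-8 (log2 fold change -2.94), CALML5 (-2.39), RAB27B (-1.81), IFI35 (-1.71), LINC01607 (-1.54), ZDHHC18 (-1.49) and MIR6077 (-0.67). IL1R1 (0.75), EXOC7 (2.01) and GLYCTK-AS1 (3.34) were higher in DTP, and TAC4 differed little. CALML5 had 5.72, 7.35 and 10.4 CPM in control and 6.34, 6.36 and 9.32 CPM in combo. A return toward control levels was not tested.

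Some genes held several losses or gains. Over all 69554 annotated regions 4083 were lower and 2332 higher. Among 4863 genes with at least 5 annotated regions tested, 1783 had a region lower and 1126 a region higher, and 394 had both. Genes with the most net losses included SCARB1, a lipoprotein receptor (6 of 17 regions), VOPP1 (6 of 19) and PHLDB2 (6 of 21). BCL10-AS1 lost 5 of 11, and ARHGEF28 and LOC102724265 each lost 5 of 13. None of these genes had a region higher. Their neighbours within 500 kb that are assigned to other genes had median log2 fold changes of -0.22 to 0.08, and the medians of these 6 genes ran from -0.85 to -0.22. The 6 genes were chosen by their calls, so medians below those of their neighbours follow from the choice. Whether calls gather at genes more than their number of regions would give was not tested.

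VOPP1 shows how the losses were placed. The 6 lower regions had log2 fold changes of -1.1 to -1.27. The strongest of them, 3056 bases from a start, fell from 32.8, 29.9 and 28 CPM to 12.4, 13.8 and 12 CPM. The strongest VOPP1 promoter region, with 48.8, 48 and 46.8 CPM in DTP and 41.5, 41.6 and 42.9 CPM in combo, was not called in both tests. One weaker region at a start was called, at 7.53, 9.02 and 8.51 CPM in DTP and 3.41, 3.45 and 3.73 CPM in combo.

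MALAT1, an abundant nuclear long non-coding RNA, had 8 of 16 regions higher and none lower. The most changed, 7189 bases upstream, had 3.16, 3.87 and 3.75 CPM in DTP and 15.1, 15.4 and 18.6 CPM in combo (log2 fold change 2.18). Its neighbour NEAT1, the RNA that builds paraspeckles, also rose within 1 kb of starts, from 3.65, 3.61 and 3.5 CPM to 9.76, 8.22 and 9.32 CPM at the more changed of the called regions (1.34). The window chr11:65400001-65500000, which holds parts of both, had 10 of 59 tested regions higher and none lower. PIM1, a cytokine-responsive kinase gene, had 7 of 18 regions higher, including its main promoter region, with 25.3, 23.2 and 29 CPM in DTP and 45.1, 46.7 and 44.5 CPM in combo (log2 fold change 0.81). The window used for PIM1 (chr6:37169902-37170201, 79.7% GC, 39 CpG, 4 GC boxes), printed below, held no AP-1 match. GC boxes also stood in the uncalled main starts of GNAI2 (29 CpG) and EGFR (33 CpG). The AXL start window, which overlaps the lower AXL region, held GC boxes and no AP-1 match.
PIM1 main start: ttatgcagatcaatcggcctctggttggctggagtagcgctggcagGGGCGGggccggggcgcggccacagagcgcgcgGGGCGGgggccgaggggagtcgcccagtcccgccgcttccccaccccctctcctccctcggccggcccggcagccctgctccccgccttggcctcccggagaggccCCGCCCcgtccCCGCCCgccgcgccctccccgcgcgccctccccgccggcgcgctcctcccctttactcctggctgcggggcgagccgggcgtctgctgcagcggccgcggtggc

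**Figure D3:**
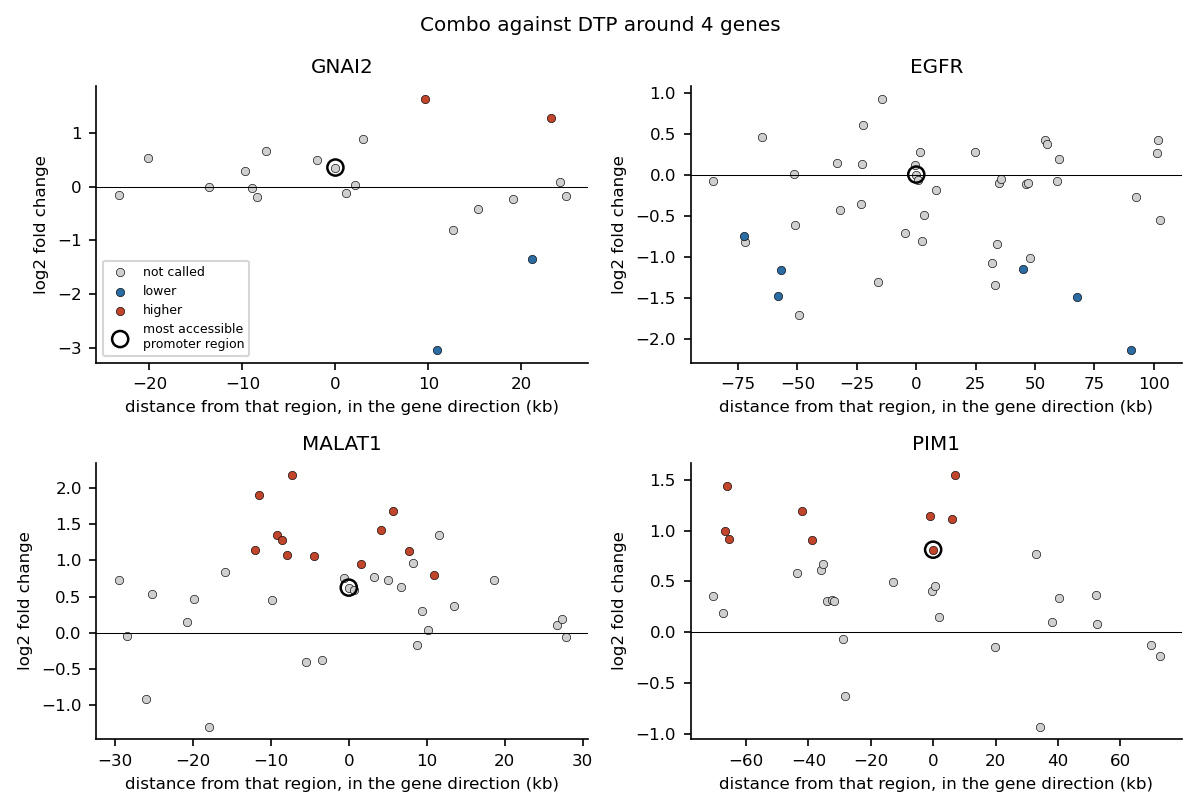
Log2 fold change of combo against DTP (y axis) for tested regions around 4 genes, by distance in kb from the most accessible promoter region of each gene (circled; x axis). GNAI2 and EGFR hold lower regions (blue) 10.9 kb and 90.6 kb downstream of a main start that was not called, at -3.04 and -2.13, and MALAT1 and PIM1 hold higher regions (red) up to 2.18 and 1.55.

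IRF1, an interferon response factor, had 5 of 13 regions higher, TAC4 had 7 of 13, MYH9 had 5 of 36 and ZMIZ1 had 6 of 46 with 1 lower. The 5 IRF1 sites, all annotated as intron, rose by 0.84 to 1.61. They lay 6809 bases upstream or 9237 to 11155 bases downstream of a start, so the introns need not be those of IRF1. The main IRF1 promoter region had 41.8, 41 and 45.5 CPM in DTP and 52.4, 50.1 and 54.9 CPM in combo (0.29, not called). Neighbour regions of the 6 gaining genes within 500 kb had medians of -0.08 to 0.15, and these genes too were chosen by their calls. SQSTM1, a selective autophagy receptor, and UCA1, a non-coding RNA, stood in windows of 100 kb with 8 regions higher each, chr5:179800001-179900000 and chr19:15800001-15900000. The UCA1 promoter regions at a start rose from 15.8, 18.8 and 12 CPM to 35.4, 30.2 and 31.4 CPM and from 19.9, 20.9 and 21.8 CPM to 49.5, 47.5 and 44.5 CPM, log2 fold changes of 1.06 and 1.18. Another UCA1 promoter region, 220 bases from a start, did not rise. It had 8.75, 6.45 and 8.76 CPM in DTP and 8.05, 7.95 and 7.73 CPM in combo (-0.02, not called).

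Chosen after the values were seen, the 100 kb windows with the most net losses included chr19:46100001-46200000, which holds IGFL3 and LOC93429 and had 9 of 16 tested regions lower and a median log2 fold change of -1.52. In this window 5 of the lower regions had no gene assigned. The strongest single loss there fell from 42 counts in DTP to 2 in combo, a ratio of 20.5 with a counting interval of 5.32 to 175. The other windows were chr7:55500001-55600000 at VOPP1 (7 of 35), chr12:12900001-13000000 near GPRC5A (7 of 40) and chr8:130400001-130500000 at ASAP1 (6 of 15).

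Across broad domains the change was small. Over 298 bins of 10 Mb the median log2 fold change ran from -0.23 to 0.21 with an SD of 0.0833, and by chromosome from -0.08 on chromosome 5 to 0.1 on chromosome 19.

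Gene lists were read beside the share over all promoter regions, 2.8% lower and 2.25% higher, and with lists this short a few calls more or fewer are no result about the list. Of 38 promoter regions of BET and P-TEFb genes none was lower or higher, and their median log2 fold change was 0.06 against 0.08 over all promoter regions. Over all 69554 annotated regions 4083 were lower and 2332 higher, with a median of 0.03. Over all 85 regions assigned to these genes 6 were lower and 2 higher. HEXIM1, an inhibitor of P-TEFb often induced by BET inhibitors, had 40.1, 36.9 and 38.3 CPM in DTP and 46.3, 45.6 and 45.6 CPM in combo (0.25, edgeR adjusted p = 0.0301, adjusted p in the summed test 0.543), and 1 of the 7 regions assigned to it was higher. CDK9 was at 0.2, and no promoter region of BRD2 was analysed here. The highest MYC promoter region had 30.4, 31.7 and 32.5 CPM in DTP and 31.9, 34.7 and 30.9 CPM in combo (0.04, SE 0.104).

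In the MYC network 1 of 41 promoter regions was lower, at MNT (-0.73), a MYC antagonist, and over all 66 regions 4 were lower and none higher. In EGFR and MAPK feedback 2 of 77 were lower and 3 higher, and over all 217 regions 14 were lower and 8 higher. SPRY2, a feedback inhibitor of receptor signalling, fell from 10.4, 13.4 and 8.01 CPM to 5.61, 4.51 and 4 CPM (-1.16). DUSP6, a MAPK phosphatase, was at -0.52 with an edgeR adjusted p of 0.00058 and an adjusted p in the summed test of 0.183. Of 80 promoter regions of YAP and TEAD targets 1 was lower (TEAD4, -0.77) and 2 higher (VGLL4, 1.21, and ARHGEF17, 0.95). Over all 264 regions assigned to these genes 20 were lower and 10 higher, with a median of -0.17. CCN1 and CCN2, classical YAP targets, were at 0.47 and 0.38, and neither passed the summed test.

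In the NF-kB list 2 of 34 were lower, TNFAIP3, a brake on NF-kB signalling (-1.44), and ICAM1, an adhesion molecule (-1.17). Of 38 in the BCL2 family 2 were lower, BID (-1.4) and BCL2 (-1.03), whereas over all 80 regions of the family 3 were lower and 5 higher. The 46 promoter regions of AP-1 factor genes had a median of 0.25, with 1 higher and none lower, and over all 106 regions 6 were lower and 4 higher. Of the EMT list 2 of 40 were higher, ESRP2, an epithelial splicing factor (1.01), and TWIST2 (0.94). The TGF-beta and BMP list had 3 of 58 higher (SKI, TGFBR3 and SMAD3, 0.94 to 1.01) and none lower, whereas over all 151 regions 8 were lower and 7 higher. Cyclins and CDK inhibitors had 1 lower and 2 higher of 49, all at CCND1.

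Among lung lineage genes 1 of 31 was lower and 2 were higher. NKX2-1, the lung lineage factor, fell from 8.75, 8.51 and 14 CPM to 4.63, 5.04 and 5.59 CPM (-1.03). AQP5 and FOXA2 rose by 1 and 1.18. Epithelial marker promoters had the highest median of the lists, 0.37, with 5 of 47 higher and none lower, 2 at CLDN4 (1.17 and 1.16), 2 at KRT8 and 1 at KRT7 (0.76), and over all 138 regions 3 were lower and 14 higher. Their summed level was 705 to 723 CPM in DTP and 888 to 902 CPM in combo. Leukocyte markers had 3 of 15 genes with a tested promoter region and fibroblast and endothelial markers had 4 of 12, with no tested promoter at PTPRC, CD3E, COL1A2 or VWF. Their summed levels were 54.1 to 55.9 and 60.1 to 63.7 CPM in DTP and 45.6 to 53.9 and 50.9 to 59.9 CPM in combo. The CSF1R promoter was lower (-1.04), the only called promoter region of either list. Over all their assigned regions leukocyte markers had 1 lower and 2 higher of 23, fibroblast and endothelial markers had 4 lower and none higher of 59, and the part of such cells in the results was not tested.

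Chromosome 19 zinc finger genes had 8 of 343 promoter regions lower and 2 higher, at a median of 0.12. The most lowered was ZNF556, with 14.6, 11.1 and 15.8 CPM in DTP and 2.93, 3.45 and 3.46 CPM in combo (log2 fold change -2.07, SE 0.227, edgeR adjusted p = 3.93e-16, adjusted p in the summed test 6.29e-08). ZNF765 and ZNF17 fell by 1.45 and 1.39, and ZNF181 rose by 1.18. The ZNF556 window (chr19:2867085-2867384, plus strand) holds 5 CCAAT boxes and is shown because no AP-1 match stands in it.
ZNF556 start: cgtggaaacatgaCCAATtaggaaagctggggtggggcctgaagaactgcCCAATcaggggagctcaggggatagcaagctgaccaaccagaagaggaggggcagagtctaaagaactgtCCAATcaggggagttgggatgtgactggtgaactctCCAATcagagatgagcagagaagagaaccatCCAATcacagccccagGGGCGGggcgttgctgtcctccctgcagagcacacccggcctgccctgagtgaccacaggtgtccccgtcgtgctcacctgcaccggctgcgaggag
Of 65 regions of replication-dependent histone genes 1 was higher, at H4C1 (1.57). Histone and zinc finger genes have close copies, so these calls are uncertain.

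**Figure D4:**
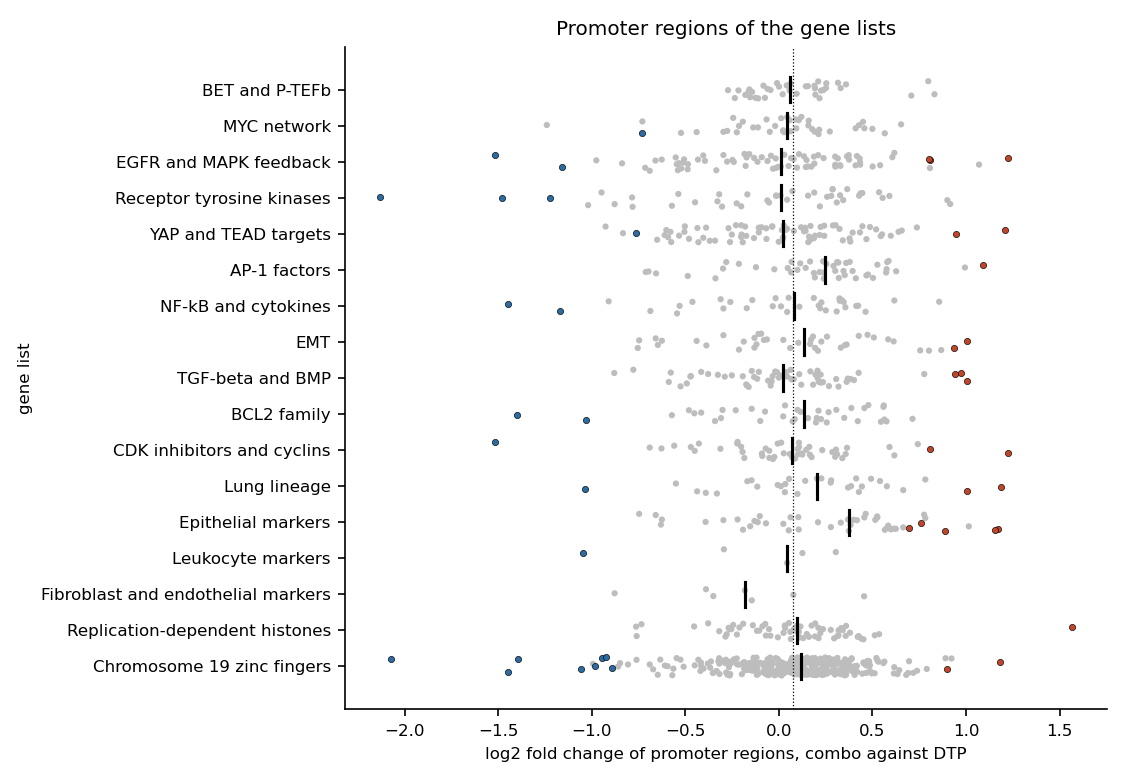
Log2 fold change of each promoter region (points, x axis) in each gene list (y axis), with called regions in blue (lower) or red (higher), the list median as a black bar and the median of all promoter regions, 0.08, as the dotted line. Most points of every list lie near the dotted line, and epithelial markers have the highest median, 0.37.

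The same drug given to untreated PC9 cells changed partly the same regions. AZD5153 against control called 10780 regions lower (8.52%) and 7074 higher (5.59%) in both tests, and this contrast shares no library with combo against DTP. Of the 7027 regions lower in combo 2294 (32.6%) were also lower under AZD5153 alone, which is 21.3% of the regions lower under AZD5153 alone, and 202 (2.87%) were higher. Of the 3232 higher in combo 601 (18.6%, and 8.5% of the other list) were also higher and 110 were lower. The median log2 fold change under AZD5153 alone was -0.6 over the regions lower in combo and 0.44 over those higher in combo. The interaction, which is the change from DTP to combo less the change under AZD5153 alone, was called at 6082 regions in both tests (4.81%). If osimertinib was stopped in the combo group, that would enter the interaction too, and this was not tested. The interaction made the fall in DTP cells larger at 1350 (19.2%) of the regions lower in combo and the rise larger at 416 (12.9%) of those higher, and went the opposite way at 79 and 7. These regions were chosen by the change in DTP cells, which enters the interaction, so the counts are a description.

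ZNF543 fell as far in untreated cells (-3.82) as in DTP cells (-3.81), and KLC1, LINC00964 and ZNF556 were lower in untreated cells too, at -3.36, -3.39 and -1.98. GNAI2, HHIPL2 and ITPR3 were at -0.42, -0.39 and -0.17 under AZD5153 alone, and the interaction was called at each of the 3. CALML5 fell by 2.01 under AZD5153 alone and rose by 2.26 in DTP cells. The internal EGFR start fell by 1.37 under AZD5153 alone, and the interaction (-0.76) was not called in both tests.

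**Figure D5:**
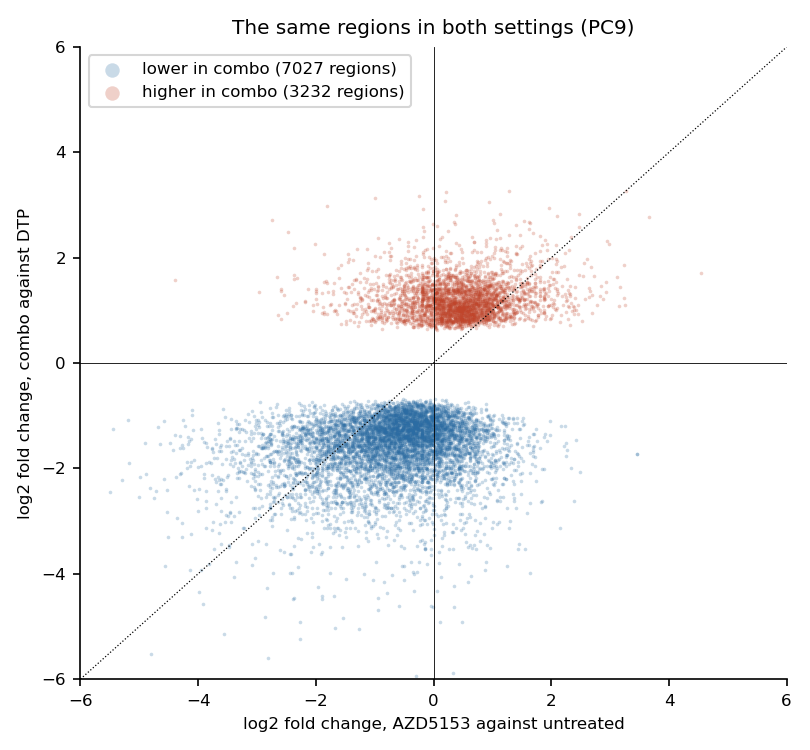
Log2 fold change in DTP cells (combo against DTP, y axis) against that in untreated cells (AZD5153 against control, x axis), for the 7027 regions lower (blue) and 3232 higher (red) in combo; the dotted line marks equal change. The blue points have a median of -0.6 and the red points of 0.44 on the x axis, and both clouds reach across 0.

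In H1975 persisters, among 102508 regions matched by overlap and tested in both lines, 2978 were lower (2.91%) and 2000 higher (1.95%) in combo than in DTP by both tests. In PC9 5836 of them were lower, of which 611 (10.5%, and 20.5% of the H1975 list) were also lower in H1975 and 57 were higher. Of 2204 higher in PC9 220 (9.98%, and 11% of the H1975 list) were also higher in H1975 and 13 were lower. The median log2 fold change in H1975 was -0.25 over the PC9 lower regions and 0.33 over the higher ones. The difference between the lines was called at 2091 of 133011 matched regions (1.57%) in both tests. The internal EGFR start was at 0.41 in H1975, GNAI2 at -0.35 and ZNF556 at 0.35, and the difference from PC9 was called in both tests at each of the 3.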

How the data were processed

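The authors deposited, per line, raw counts of ATAC-seq reads in regions of 502 bases, an annotated subset of those regions, and a peak list per library holding the q value as −log10. Per the submitters' processing notes, reads were handled with BWA 0.7.17, SAMtools 1.9, deepTools 3.4, MACS2 2.2.6, featureCounts 2.0.0 and ChIPseeker 1.29.1 on hg38. The annotated table gives, for each region, an annotation, a gene symbol and the distance in bases to a start. The labels' extraction protocol describes H3K27ac immunoprecipitation, while titles and design give ATAC-seq, as read here.

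Counts were analysed in R 4.3.3 with edgeR 4.0.16, with TMM scaling, filterByExpr over all 12 PC9 libraries and 1 mean per group. Of the 126506 regions tested, 69565 are in the annotated table. CPM used the scaled library sizes, and fitted log2 fold changes carry the default prior count. The summed test was an edgeR likelihood ratio test. Standard errors were taken from the F statistic. Peak positions were used, without the −log10 q values the authors deposited. H1975 regions were matched to PC9 regions by an overlap of at least 50% of their width. Promoter motifs were searched with Python 3.11.15, and permutation tests used SciPy 1.17.1. The tests were also run on simulated counts drawn with counting noise only, so that run could not check them against biological spread between libraries. Replicate numbers did not pair the samples, as same-numbered DTP and combo libraries had correlations of -0.009 to -0.003 between their deviations from the group means.

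Named regions were called in both tests, had group libraries that did not overlap, lay above the median level, and carried a gene symbol. They were the 8 largest falls and rises, the 6 largest at promoters, the 6 loci with the most net calls in each direction, with ties kept, up to 4 called promoters per list, and the promoters of BRD2, HEXIM1, CDK9, MYC, DUSP6, CCN1, CCN2 and EGFR whatever their values. Other regions of GNAI2, EGFR, CCND1, VOPP1, MALAT1, NEAT1, PIM1, IRF1, UCA1 and SQSTM1, the 100 kb windows, the motifs and the printed promoters were chosen after their values were seen. Members and lists were chosen with earlier results of these data known. Some items that this rule named are not reported here. A GC correction of the counts was not run, since no genome was used here.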

Additional observations from a re-analysis of the deposited data

Results flagged for a closer look

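At several named regions the AZD5153 effect differed between DTP and untreated PC9 cells, by an edgeR interaction test called in both tests. On the log2 scale the change in DTP cells minus that in untreated cells was -3.32 at LINC00824, -3.38 at HHIPL2, -3.28 at ITPR3, -2.62 at GNAI2, -2.47 at VAC14-AS1, -2.99 at SPRR1B, -3.05 at KRTAP4-6 and -2.2 at OR1F1. It was 2.54 at LINC01607, 1.45 at IFI35, 1.74 at RAB27B, 2.25 at IL1R1, 4.27 at CALML5 and 1.38 at ESRP2, and -1.46 at the downstream CCND1 region and -1.7 at SPRY2. These regions were chosen for their change in DTP cells, which enters the difference.

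The change from DTP to combo also differed between PC9 and H1975 persisters in the joint fit, called in both tests. PC9 minus H1975 was -4.08 at LINC00824, -2.77 at ZNF543, -2.76 at KLC1, -3.49 at HHIPL2, -2.52 at ITPR3, -2.65 at GNAI2, -2.65 at LINC00511, -2.67 at VAC14-AS1, -3.18 at SPRR1B, -2.93 at KRTAP4-6, -2.48 at OR1F1, -2.5 at the internal EGFR start and -2.38 at ZNF556. It was 3.38 at RNVU1-8, a multi-copy gene, 1.92 at LINC01607, 2.58 at IFI35 and 1.04 at ESRP2. The same limit of choice applies here.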

How the results depend on the processing

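The edgeR test alone called 28223 regions, 14833 lower and 13390 higher. DESeq2 called 12501 (7190 lower, 5311 higher), a mean of at least 50 counts per library left 6622 (3615 and 3007), a log2 fold change of at least 1 as well left 11732 (8546 and 3186), and summed groups with the HCC2935 dispersion gave 10259 (7027 and 3232). With that dispersion and the libraries kept apart, 7896 were higher. Library size scaling, which moved the median by less than 0.1, gave 27534 (16732 lower, 10802 higher), so the balance of lower and higher depended on the scaling. The replicate block gave 27963 and is not a paired test, as the numbers did not pair the samples. Leaving out each library in turn gave 22166 to 23523 regions, 11558 to 12543 lower and 10496 to 11571 higher.

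In both tests together 10259 regions were called (7027 lower, 3232 higher). A mean of at least 50 counts left 1170 (691 and 479) and the annotated table alone 6419 (4085 lower). Leaving out a library in turn gave 7693 to 8522, with 5275 to 5994 lower and 2410 to 2692 higher. Summing the groups took the interaction from 17424 to 6082 regions (9256 to 2890 more positive, 8168 to 3192 more negative), and library size scaling, which moved its median to -0.105, split it 6825 to 10091. Summing took the line difference from 10545 to 2091 (3468 to 753 and 7077 to 1338). The promoter share difference was 0.957 to 1.57 points without 1 library. Over 1105 values no called named region changed sign, while the uncalled main starts of EGFR (0.01) and MYC (0.04) turned negative in 8 and 3 settings, to as low as -0.19 and -0.09. At 43 values the threshold was no longer passed, 13 of them under the fold limit. Of the 43, HEXIM1 held 11, CCN2 12, CCN1 5 and DUSP6 2, and these promoters were not called in both tests. Each setting was judged by its own fit alone, so calls in both tests were not checked again at named regions. The causes were not tested, beyond fewer regions or samples where the setting removes them. Widening promoters to 3000 bases moved 9 of 34 list counts by over 1.5 times. A GC correction was not run.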

Other observations

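Among promoters matched to a sequence window, those called lower in both tests held the letters TGANTCA, searched for AP-1, more often than all did. Among windows of at least 60% GC they stood in 7 of 78 lower windows (8.97%) against 3.37% of all windows. The shares in the GC-poor windows are given above. In higher windows of at least 60% GC the letters stood in 1 of 145 (0.69%). The matched windows cover 145 of the 823 lower promoter regions, and the rest were not searched.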
